A study of Mus musculus with 12 samples.

Results

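Pdzrn3, Pdzrn4, Lnx1 and Lnx2 are the 4 mouse genes of the ligand of numb-protein X family whose proteins join a RING finger to PDZ domains. Their names are among 36674 gene names in the array tables. All probes that these tables name for these genes were taken, which gave 11 probes. Of these, 6 lie on both chips of the study (5 of Pdzrn4 and 1 of Lnx2) among 31448 such probes, and 5 lie only on chip 2 (3 of Pdzrn3, 1 of Lnx1 and 1 of Lnx2), which holds 45281 probes. The genes were picked with their differences between knockout (KO) and wild type (WT), and between the wild-type regions, already known from these arrays, so those differences are given as a description with no test.

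The study measured total RNA of microdissected brain tissue from CD1 mouse embryos at E12.5 on Illumina bead arrays, 12 arrays on 2 chips. Chip 1 holds 2 WT thalamus arrays (WT1 and WT2), 2 Gbx2-KO thalamus arrays (KO1 and KO2), 1 WT epithalamus array and 1 WT prethalamus array. Chip 2 holds WT3, WT4, KO3 and KO4 and replicate 5 of each genotype, which the labels exclude as outliers and which is kept apart below. The labels give neither the Gbx2 allele nor the number of embryos behind an array, so the spread between arrays of one group may be technical. All levels below are log2 intensities after background correction and quantile normalization within a chip (neqc). A probe counts as detected on an array where its detection p is under 0.05. Levels of different probes, and of the 2 chips, are not on one scale and are not set against each other. Gbx2 itself, the transcription factor gene that was targeted, read 13.73 and 13.30 in WT and 13.04 and 12.77 in KO on chip 1, and 15.95 and 15.75 in WT against 13.75 and 14.04 in KO on chip 2 (KO minus WT -1.29, SE 0.27, limma adjusted p = 0.0421). KO was thus lower within each chip, but whether the probe lies in the part of the gene that was deleted is not known from the labels, and leaving out any one of KO1, KO2, KO3, KO4, WT3 or WT4 took its adjusted p above the threshold of 0.05, up to 0.142.

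As background, RING fingers recruit a ubiquitin-charged conjugating enzyme, and PDZ domains bind the C-terminal tails of membrane and signalling proteins. A protein with both can mark the proteins it gathers for degradation or relocation. LNX1 was named for its binding to NUMB, an inhibitor of Notch signalling, which it ubiquitinates, and LNX2 is its closest relative. PDZRN3, also called LNX3, is known for ubiquitinating the receptor kinase MuSK at the neuromuscular junction and for acting in Wnt signalling in vessels, and PDZRN4, also called LNX4, is the relative closest to it. The thalamus relays sensory input to the cortex. The epithalamus, which forms the habenula, lies above it and the prethalamus in front of it.

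Pdzrn4 is read by 5 probes that differ widely in signal, so their sequences are shown first. Each probe has 50 bases and was decoded from the nuID in the deposited table, an identifier that encodes the sequence itself. The probes are printed in lower case, as no part of them is singled out.

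ILMN_1249150: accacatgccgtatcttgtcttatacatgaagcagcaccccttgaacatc
ILMN_1239949: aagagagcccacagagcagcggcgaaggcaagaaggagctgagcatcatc
ILMN_1253021: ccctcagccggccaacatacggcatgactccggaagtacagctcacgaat
ILMN_2536446: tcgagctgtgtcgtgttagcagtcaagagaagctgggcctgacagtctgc
ILMN_1230674: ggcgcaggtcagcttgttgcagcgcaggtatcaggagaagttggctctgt

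These sequences share no run over 8 bases with the other decoded probes for these genes and no run over 14 bases with a probe named for another gene. Their GC content is 46 to 58%. In the chip 2 table the same probes carry older names, 1 a RIKEN clone name and 4 locus numbers, and the joined table names all of them Pdzrn4. The gene lies on mouse chromosome 15 (chr15:92396810-92771827, GRCm38.p6, plus strand). Where in the transcript each probe lies was not determined here.

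Pdzrn4 was lower in KO than in WT thalamus on both chips with the probes that were detected there, and the size of the difference varied from probe to probe. The probe ILMN_1249150 read 9.03 and 9.82 on the WT arrays of chip 1 against 6.28 and 6.14 on the KO arrays. On chip 2 it read 12.31 and 12.90 in WT against 7.82 and 9.40 in KO. WT and KO arrays did not overlap on either chip, and the probe was detected on all 8. The difference KO minus WT was -3.60 (SE 0.35, n = 4 arrays a genotype), a level 12.2-fold higher in WT. Within chips it was -3.21 on chip 1 and -3.99 on chip 2, that is 9.28-fold and 15.9-fold.

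A further probe, ILMN_1239949, read 8.68 and 9.99 in WT against 6.87 and 6.43 in KO on chip 1. On chip 2 it read 10.75 and 10.88 in WT against 7.19 and 8.17 in KO. The genotypes again lay apart on both chips, with a difference of -2.91 (SE 0.31), or 7.52-fold. It was smaller without background correction (-2.16), in the deposited log2 values (-2.18) and with replicate 5 included (-2.04). In both probes WT2 stood above WT1 and KO4 above KO3.

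Further probes of Pdzrn4 gave bounds on chip 1 rather than measured KO levels. ILMN_1253021 read 5.06 and 6.25 in WT against 4.57 and 4.70 in KO on chip 1, where only WT2 was detected, so KO was at least 1.12-fold lower there. On chip 2, where all but KO3 were detected, it read 9.31 and 8.81 in WT against 5.61 and 6.29 in KO. Since it was detected on 1 of 4 KO arrays and 3 of 4 WT arrays, the fitted difference over both chips, -2.06 (SE 0.43), rests in part on levels at background, and without background correction it was -1.14.

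ILMN_2536446 was detected on WT2, WT3 and WT4 and on none of KO1 to KO4. It read 5.30 and 6.48 in WT against 5.12 and 5.0 in KO on chip 1, and 9.29 and 9.09 in WT against 5.14 and 5.58 in KO on chip 2. As the KO arrays give only a bound, KO was at least 10.3-fold lower on chip 2, at least 1.33-fold lower on chip 1 and at least 3.69-fold lower over both. These bounds hold for the background correction used: the difference over both chips was -1.21 without one and -1.02 in the deposited log2 values, smaller than the bound. This probe was detected on fewer than the 4 of 8 arrays that the fit over both chips asked for.

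The last probe, ILMN_1230674, gave no comparison on chip 1. It was detected on no array of chip 1 (4.57 to 4.90 in thalamus) and on all arrays of chip 2, where WT read 6.57 and 6.26 and KO 6.05 and 6.13. On chip 2 KO minus WT was -0.33 (SE 0.29).

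**Figure D1:**
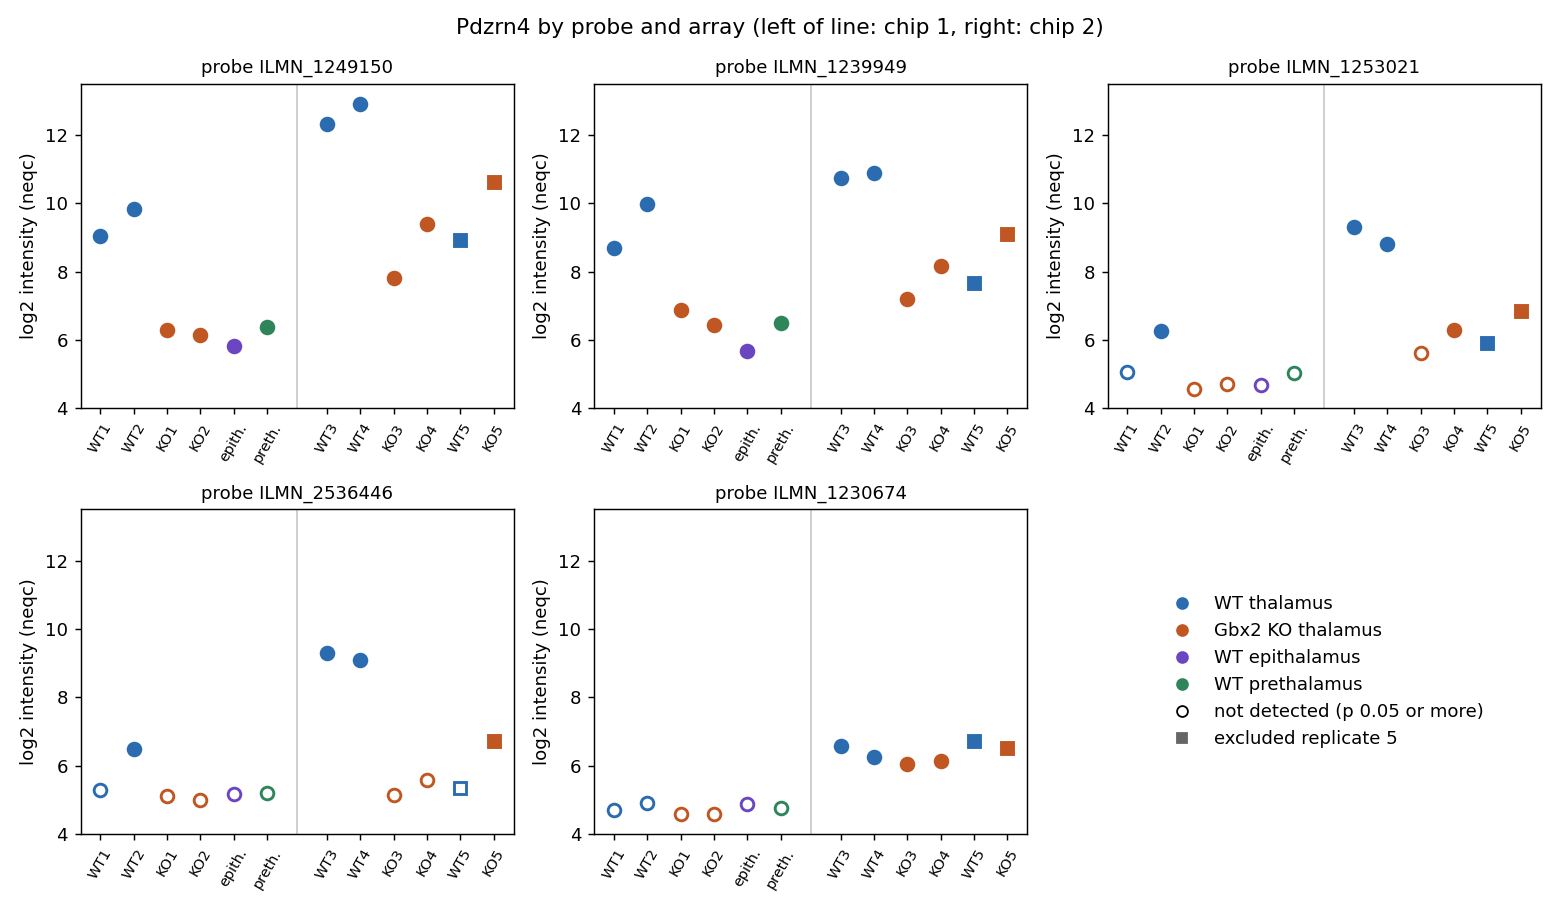
Log2 intensity (vertical axis) of each Pdzrn4 probe on every array (horizontal axis), 1 panel a probe, with chip 1 left and chip 2 right of the grey line. Filled symbols were detected and open ones were not, circles are the arrays kept and squares the excluded replicate 5. In the panel of ILMN_1249150 the KO arrays sit at 6.14 and 6.28 on chip 1 and at 7.82 and 9.40 on chip 2, below the WT arrays of the same chip, and WT5 at 8.93 sits below KO5 at 10.61.

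Of the 4 Pdzrn4 probes that passed the detection filter, 3 had an adjusted p under 0.05 in the fit over both chips, where 2.69% of 13215 probes did (1.32% lower in KO). All 4 had every KO array below every WT array of the same chip, levels at background included, as did 8.97% of the probes tested. In the fit of chip 2 alone 4 of the 5 probes passed the threshold, against 0.552% of 21369 probes (0.435% lower in KO). These counts come from the contrast that the genes were chosen on, and nothing is read from them. The median difference over all probes tested was -0.0039 for both chips and -0.0161 for chip 2.

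Whether the KO effect on a probe differed between the chips was not part of that choice and was tested. The difference between chips was -0.78 (SE 0.69) for ILMN_1249150, with an adjusted p of 0.875 by limma's interaction of genotype and chip. It was -0.45 (SE 0.64, limma adjusted p = 0.914) for ILMN_1239949. The widest of the Pdzrn4 probes tested was that of ILMN_1253021, with -2.08 (SE 0.57, limma adjusted p = 0.787), the probe whose KO level on chip 1 is only a bound. The limma test called 0 of 13215 probes for a difference between chips, and 801 (6.06%) had an unadjusted p under 0.05.

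Pdzrn3 lies on mouse chromosome 6 (chr6:101149607-101377897, GRCm38.p6, minus strand) and was measured on chip 2 alone, so it has 2 arrays a genotype and no region to compare. It too was lower in KO, with both probes that were detected. ILMN_3156010 read 14.60 and 14.01 in WT against 10.53 and 11.39 in KO. In unnormalized intensity these were 30304.3 and 17454 in WT and 1653.2 and 2277.8 in KO. The genotypes lay apart, with a difference of -3.35 (SE 0.39, n = 2 a genotype), or 10.2-fold.

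ILMN_2648937, a further Pdzrn3 probe, read 9.90 and 10.20 in WT against 6.54 and 6.49 in KO. Its difference of -3.53 (SE 0.29), or 11.6-fold, depended on the processing, at -2.40 without background correction and -2.45 with replicate 5 included. The probe ILMN_3156010 stood at -3.26 without background correction and at -2.44 with replicate 5 included. ILMN_3077027, the remaining probe, was detected on no array of chip 2, with levels between 4.82 and 5.72, and gives no comparison. Both detected probes passed the threshold in the chip 2 fit, where 0.552% of all probes did. Both KO arrays lay below both WT arrays in each of them, as in 26.2% of the probes tested. Pdzrn3 too was chosen on this contrast, so nothing is read from these counts.

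Lnx2, on chromosome 5 (chr5:147016655-147076572, GRCm38.p6, minus strand), gave no separation of the genotypes. Its probe on both chips, ILMN_2598990, has the sequence below, shown because it is the only Lnx probe among those taken that was read on chip 1.

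ILMN_2598990: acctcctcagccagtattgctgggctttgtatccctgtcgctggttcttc

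It read 5.31 and 5.17 in WT and 5.35 and 5.67 in KO on chip 1, where KO2 was the only thalamus array that detected it. On chip 2 it read 6.90 and 6.21 in WT and 7.86 and 6.48 in KO, so that KO4 fell between the WT arrays. The difference on chip 2, where all 4 arrays detected it, was 0.61 (SE 0.48), and the chip 1 levels, mostly at background, give none. The chip 2 probe ILMN_2779913 read 6.61 and 6.52 in WT and 7.12 and 6.28 in KO, a difference of 0.13 (SE 0.35) with overlapping groups. Neither Lnx2 probe passed the threshold in the chip 2 fit, where 0.552% of all probes did, so nothing is read from this.

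Lnx1, on the same chromosome (chr5:74592447-74703043, GRCm38.p6, minus strand), was not detected on any array of chip 2. Its probe ILMN_2597124 read 5.15 and 5.2 in WT and 5.36 and 5.11 in KO, and 4.99 and 5.05 on the excluded pair. No fold is given, since both genotypes are at background.

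**Figure D2:**
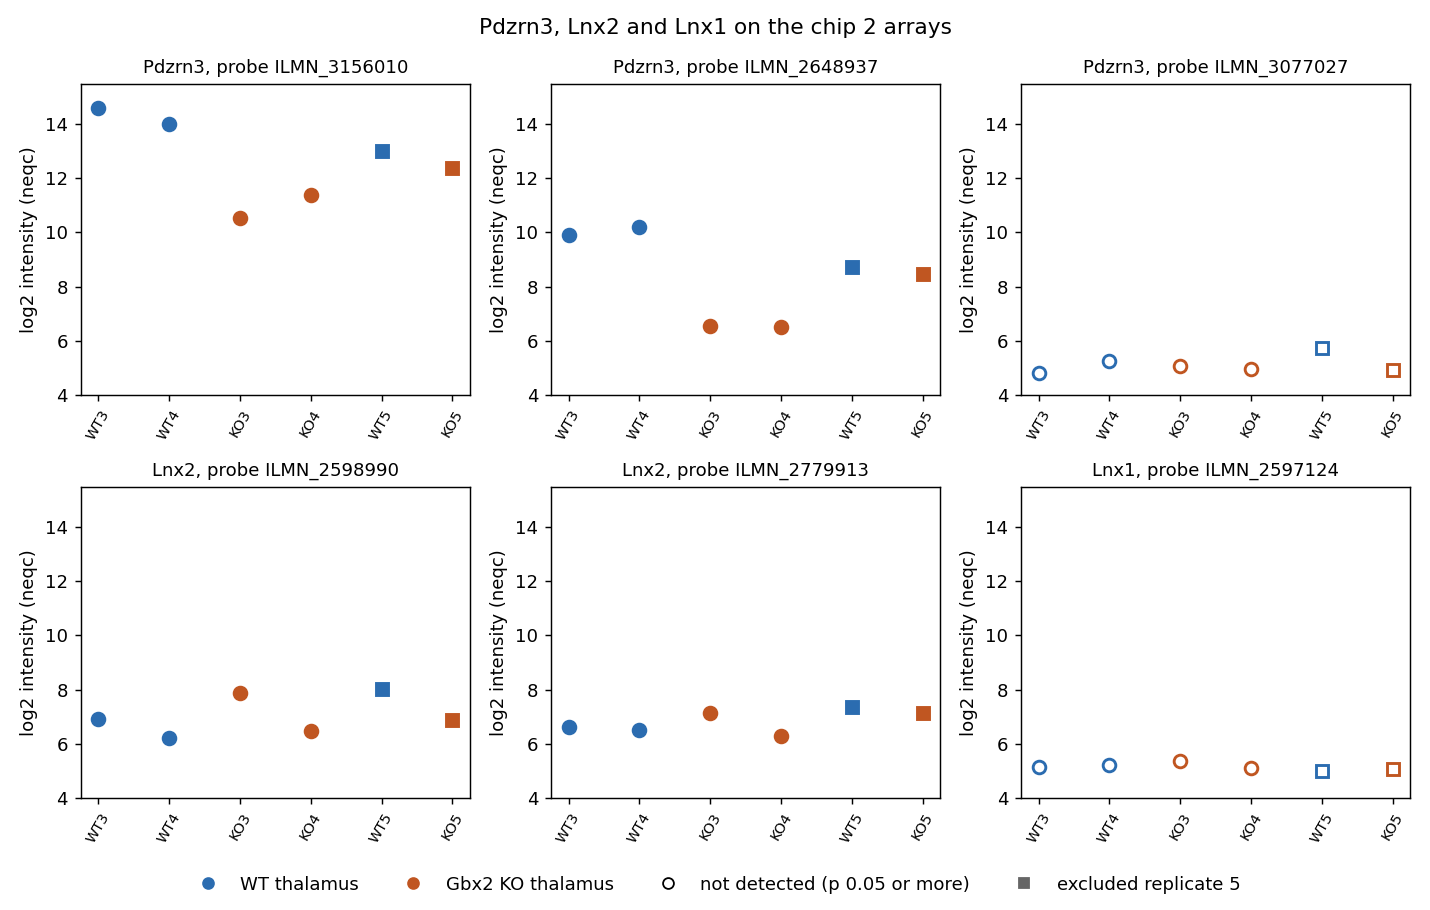
Log2 intensity (vertical axis) of the Pdzrn3, Lnx2 and Lnx1 probes on the 6 arrays of chip 2 (horizontal axis), 1 panel a probe, with open symbols where a probe was not detected and squares for the excluded replicate 5. Pdzrn3 stands at 14.60 and 14.01 in WT and at 10.53 and 11.39 in KO with ILMN_3156010, whereas the Lnx2 arrays of both genotypes overlap and Lnx1 stays undetected.

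Set side by side on chip 2, the probes detected on all 4 of its arrays gave differences of -3.99, -3.13 and -0.33 for Pdzrn4, -3.35 and -3.53 for Pdzrn3 and 0.61 and 0.13 for Lnx2. Of the 11 probes, 8 passed the detection filter of their fit. Of those that did not, Pdzrn4 ILMN_2536446 was detected in WT, and Pdzrn3 ILMN_3077027 and Lnx1 ILMN_2597124 were not detected in either genotype.

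**Figure D3:**
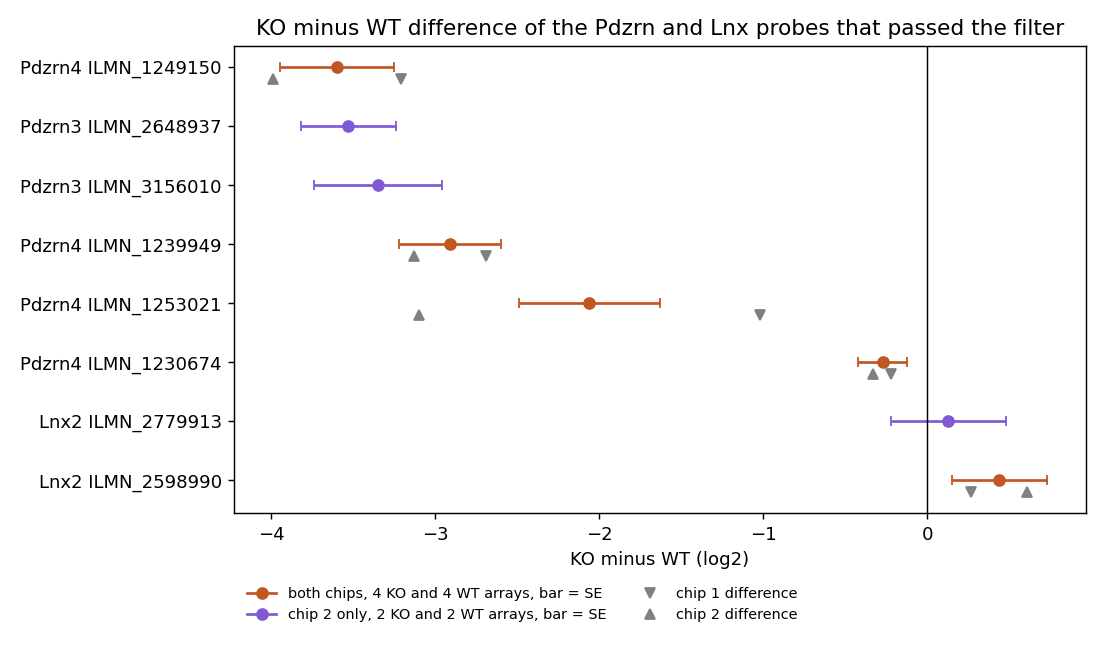
KO minus WT difference in log2 intensity (horizontal axis) of the 8 probes that passed the filter (vertical axis), as circles with bars of 1 SE, in orange for both chips and purple for chip 2 alone. Grey triangles give the difference within chip 1 and within chip 2, which lie furthest apart for ILMN_1253021 at -1.02 and -3.10. For that probe, ILMN_1230674 and Lnx2 ILMN_2598990 the chip 1 values are wholly or mostly at background.

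Pdzd4, named Pdzk4 on the arrays, is the family member that keeps PDZ domains but lacks the RING. Its brighter probe on both chips read 4.87, 4.90, 8.25 and 7.57 in WT1 to WT4 and 4.59, 4.69, 5.99 and 6.87 in KO1 to KO4, and was detected on 4 of the 8 arrays, those of chip 2. KO lay below WT on chip 2 (-1.47), and the fitted difference over both chips, -0.86 (SE 0.30) with the chip 1 levels at background, missed the threshold (limma adjusted p = 0.151). A Pdzd4 probe on chip 2 alone read 8.06 and 7.92 in WT against 5.79 and 6.70 in KO (-1.75, SE 0.36, limma adjusted p = 0.087). A dimmer probe on both chips, detected on 2 of the 8 arrays, did not pass the filter. On chip 2 it read 6.14 and 6.05 in WT against 4.99 and 5.52 in KO.

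The wild-type regions were compared with wild-type thalamus on chip 1, where each has 1 array and no test is possible. In the epithalamus Pdzrn4 was low: ILMN_1249150 read 5.82, a difference of -3.22 from WT1 and -4.0 from WT2. In the prethalamus it read 6.39, with differences of -2.65 and -3.43. Both regions lay near the KO thalamus of the same chip, the epithalamus -0.39 and the prethalamus 0.18 from the KO mean. These levels were detected but not far above the lowest detected signals of their arrays (5.34 to 5.53), so how near they were is not well resolved.

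ILMN_1239949 read 5.66 in the epithalamus and 6.48 in the prethalamus. Its differences from WT1 and WT2 were -3.01 and -4.33 for the epithalamus and -2.20 and -3.52 for the prethalamus. From the KO mean the epithalamus stood at -0.98 and the prethalamus at -0.17. The epithalamus was the lowest of the 6 arrays of chip 1 with either of these probes after normalization. In unnormalized intensity KO1 was lower than the epithalamus with ILMN_1249150 (145.3 against 149.7). The sizes depended on the background correction. Against the mean of both WT arrays the epithalamus went from -3.61 to -2.25 without it for ILMN_1249150 and from -3.67 to -2.24 for ILMN_1239949. The prethalamus went from -3.04 to -2.03 and from -2.86 to -1.92.

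ILMN_1253021 and ILMN_2536446 were detected in neither region. With the background correction used, WT thalamus was at least 1.22-fold and at least 1.43-fold higher than the epithalamus with them, and at least 1.25-fold and at least 1.47-fold higher than the prethalamus. These bounds rest on WT2, as WT1 (5.06 and 5.30) was not detected. Without background correction the differences were -0.46 and -0.27 for the epithalamus and -0.24 and -0.26 for the prethalamus. Those are smaller than the bounds, except for ILMN_1253021 in the epithalamus. So 2 of the 4 Pdzrn4 probes that could be compared were lower by 1 or more on the log2 scale than both WT thalamus arrays in the epithalamus, and 2 of 4 in the prethalamus. Over all probes compared, 0.602% were that much lower in the epithalamus (1.43% in either direction) and 0.811% in the prethalamus (1.96% in either direction), and since the region differences were known when the genes were picked nothing is read from the counts. Lnx2 read 5.14 in the epithalamus, where it was not detected, and 5.69 in the prethalamus, where it was.

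Marker genes of the tissues moved with Pdzrn4 in part, and their part in its differences was not tested. The summed intensity of 7 thalamus markers on chip 1 was 19221 and 14976 in WT, 14096 and 12315 in KO, 2769 in the epithalamus and 1074 in the prethalamus. On chip 2 it was 102562 and 91016 in WT and 42249 and 49493 in KO. Gbx2, the targeted gene, makes up most of these sums in the thalamus of chip 1. Without it the other 6 markers summed to 5591 and 4877 in WT and 5700 and 5333 in KO on chip 1, with 2688 in the epithalamus and 766 in the prethalamus, and to 39092 and 35948 in WT and 28470 and 32697 in KO on chip 2. Lhx9 (10.21 and 9.98 in WT, 10.29 in both KO arrays) and Olig3 (9.64 and 8.75 in WT, 10.21 and 10.26 in KO) were not lower in KO on chip 1. Rora was (8.13 and 7.90 in WT, 5.80 and 5.84 in KO), as were Tcf7l2 (8.20 and 6.59, 6.19 and 5.87) and Foxp2 (6.16 and 6.30, 5.14 and 5.56, KO1 not detected). These were lower in KO on chip 2 as well. Slc17a6, the brightest of the 6 and so the heaviest in their sum, overlapped on chip 1 (11.53 and 11.56 in WT, 11.60 and 11.40 in KO). On chip 2 it was lower in KO (14.77 and 14.74, 14.27 and 14.55). With tissue RNA, fewer cells of a type and less RNA per cell cannot be told apart.

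Gad1, a prethalamus marker and the enzyme that makes GABA, read 4.84 in WT1 and 8.70 in WT2, and Pdzrn4 too was higher in WT2. On chip 2 Gad1 read 8.66 and 9.10 in WT and 6.09 and 8.06 in KO. Gad1 read 10.15 in the epithalamus and 11.06 in the prethalamus, where Pdzrn4 was low. The 8 prethalamus markers summed to 362 and 1040 in WT1 and WT2, 326 and 358 in KO1 and KO2, 2435 in the epithalamus and 10347 in the prethalamus. On chip 2 they summed to 1493 and 1591 in WT and 473 and 1056 in KO. Dlx2, which marks the prethalamus, was detected on the prethalamus array alone.

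The 8 epithalamus markers did not set the epithalamus array apart from the thalamus. They summed to 6731 and 3477 in WT1 and WT2, 9504 and 9888 in KO1 and KO2, 6530 in the epithalamus and 4612 in the prethalamus, and to 33153 and 15301 in WT and 33426 and 39213 in KO on chip 2. On chip 1 Nr4a2 was highest in the epithalamus (9.66 against 6.41 to 8.43 elsewhere), and so, by little, was Cntn2 (11.19 against 9.56 to 11.04). Gng8 went the other way, at 7.42 there against 9.77 to 10.60 in the thalamus, and Etv1 was lowest there (6.65). Irx1, Tac1 and Zic1 lay within the range of the thalamus arrays, and the Pou4f1 probe was detected on no array.

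Markers of other cell types were also summed. Those of meninges and mesenchyme, 5 in all, summed to between 138 and 171 on chip 1 and between 160 and 347 on WT3, WT4, KO3 and KO4. The 5 vessel markers summed to between 346 and 439 on chip 1 and to 1187 and 1651 in WT and 845 and 1328 in KO on chip 2. The summed neuron markers lay between 8902 and 12509 on chip 1 and between 38961 and 49182 on the 4 kept arrays of chip 2. The 4 erythroid markers summed to between 11142 and 15427 on chip 1 and between 45643 and 80130 on the kept arrays of chip 2. Of 3 skeletal muscle markers Myod1 and Actc1 were detected on no array, and Tnnt1 read 6.94 and 6.86 in WT and 6.56 and 6.22 in KO on chip 1, and 9.44 and 8.49 in WT and 6.87 and 7.91 in KO on chip 2. The 5 radial glia markers summed to between 1391 and 1898 on the thalamus arrays of chip 1 and between 10984 and 12466 on the kept arrays of chip 2, and among them Slc1a3 was lower in KO on both chips (7.26 and 7.48 against 6.15 and 6.73, and 11.28 and 11.04 against 10.26 and 9.30). The part of these markers in the Pdzrn4 differences was not tested.

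The excluded replicate 5 did not follow the others for Pdzrn4. ILMN_1249150 read 8.93 in WT5 and 10.61 in KO5, so that KO5 stood above WT5 by 1.69. The same order held for ILMN_1239949 (7.65 and 9.11), ILMN_1253021 (5.91 and 6.84) and ILMN_2536446 (5.35, not detected, and 6.71), while ILMN_1230674 read 6.73 and 6.52. Pdzrn3 kept the order of the other arrays with small gaps, at 13.01 and 12.37 with ILMN_3156010 and at 8.72 and 8.45 with ILMN_2648937. Lnx2 was higher in WT5, at 8.02 and 6.86 with ILMN_2598990 and at 7.36 and 7.15 with ILMN_2779913. With this pair included the difference of ILMN_1249150 shrank to -2.55 (SE 0.73) and that of Pdzrn3 ILMN_3156010 to -2.44 (SE 0.55).

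Genes with a pattern like that of Pdzrn4 were ranked by Pearson's r with ILMN_1249150 over 10 arrays (8 thalamus arrays, epithalamus and prethalamus), each value taken as its distance from the mean of the WT thalamus arrays of its chip. The correlation is a description: the points share 2 chips, and the gap between WT and the other arrays dominates it. Of 13214 other probes, 39 had an r of 0.9 or more. The nearest was the gene's own probe ILMN_1239949 (r = 0.980), while ILMN_1253021 ranked 225 (r = 0.794) and ILMN_1230674 ranked 1425 (r = 0.579). Lnx2 ILMN_2598990 had an r of -0.577. On chip 1 it was detected only on KO2 and the prethalamus array, so no opposite pattern is read from it.

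The 6 nearest genes were Cd47 (r = 0.969), an immunoglobulin-type membrane protein, Slc6a7 (r = 0.965), the brain proline transporter, Robo2 (r = 0.964), a receptor for Slit guidance cues, Negr1 (r = 0.955), an adhesion protein of neurons, Ntng1 (r = 0.952), the membrane-anchored netrin-G1, and Cyp1b1 (r = 0.951), a cytochrome P450. Ntng1 read 9.20 and 9.21 in WT against 6.48 and 6.18 in KO on chip 1, and 13.15 and 12.74 against 8.92 and 10.02 on chip 2. It read 6.29 in the epithalamus and 7.88 in the prethalamus, so it was low in the epithalamus as Pdzrn4 was and less so in the prethalamus. Cyp1b1 read 8.15 and 8.54 in WT against 4.81 and 4.75 in KO on chip 1, 11 and 12.05 against 5.40 and 5.64 on chip 2, and 4.79 and 4.81 in the 2 regions. It was detected on none of KO1 to KO4 and in neither region, so KO was at least 19.4-fold lower with the background correction used. Cd47, detected on all 8 thalamus arrays, differed by -1.68. Slc6a7 was detected on 1 of the 4 KO arrays.

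**Figure D4:**
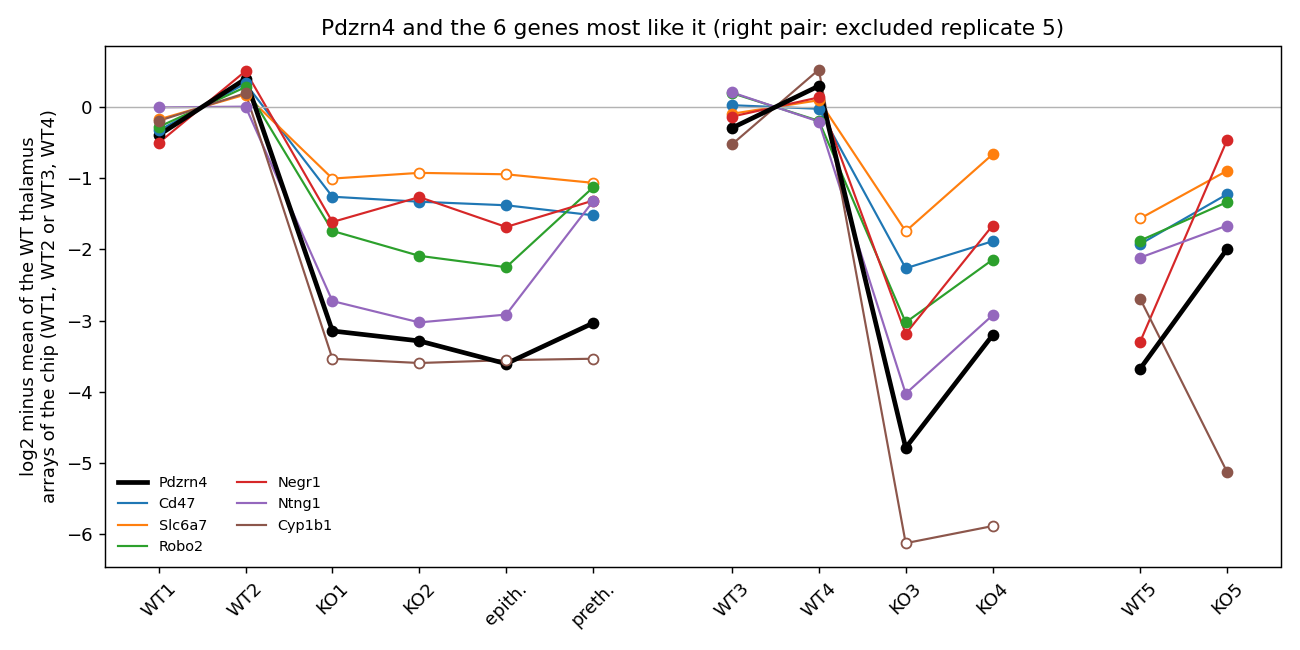
Log2 intensity minus the mean of the 2 kept WT thalamus arrays of the same chip (vertical axis) on each array (horizontal axis), for Pdzrn4 ILMN_1249150 in black and the 6 genes nearest to it in colour. Open symbols were not detected. Lines only join the arrays of a gene within a block, and the right pair is the excluded replicate 5, which did not enter the ranking and where KO5 stands above WT5 by 1.69 for Pdzrn4 and Cyp1b1 goes the other way (KO5 minus WT5 -2.44).

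Known or proposed partners and substrates of the family showed no call. Of 16 listed genes 11 were measured, 0 passed the threshold of limma's test, and at an unadjusted p under 0.05 there were 1 lower and 1 higher in KO. Over all probes tested, 10.1% were lower and 10.6% higher at an unadjusted p under 0.05 in the fit of both chips, and 8.75% and 9.38% in that of chip 2. The 7 measured on both chips had a median difference of 0.12. The smallest p belonged to Pbk, a mitotic kinase whose tail binds PDZ domains, measured on chip 2 only (KO minus WT 1.5, SE 0.35, limma adjusted p = 0.106), and to Grip1, a PDZ scaffold of glutamate receptors (-0.67, SE 0.19, limma adjusted p = 0.0916). Against the 2.69% and 0.552% of all probes that passed in the fit of both chips and of chip 2, a count of 0 among so few genes is not a result about them.

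Among 43 PDZ scaffold genes of other families 36 were measured and 0 passed by limma, with 7 lower and 1 higher at an unadjusted p under 0.05, where all probes gave the shares above (2.69% and 0.552% past the threshold, 10.1% lower and 10.6% higher unadjusted on both chips). Their median on both chips was -0.02. Grip1, also on this list, and Dlg2, a synaptic scaffold (-0.74, SE 0.26, limma adjusted p = 0.154), had the smallest p.

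Of 40 RING ligase genes linked to nervous system development, 35 were measured and 1 passed, Dtx1, which encodes the Notch pathway ligase Deltex 1. It fell in KO, reading 7.95, 8.34, 9.22 and 9.80 in WT1 to WT4 and 7.13, 7.16, 7.75 and 8.78 in KO1 to KO4 (-1.12, SE 0.24, limma adjusted p = 0.0451). This call stood in 5 of 17 alternative settings, and leaving out any one array except WT1 took the adjusted p above 0.05, up to 0.146. The 1 call among the 32 genes measured on both chips is 3.12%, near the 2.69% of all probes. The median of the list was -0.15, and at an unadjusted p under 0.05 there were 8 lower and 2 higher in KO, against 10.1% lower and 10.6% higher over all probes of both chips. The list also held Park7, which is not itself a RING ligase.

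The start regions of the 2 genes that were lower in KO are shown for comparison, as RefSeq gives them in GRCm38.p6, in windows of 300 bases that run from before the start to 50 bases after it. They were searched for TAATTA, a core that homeodomain proteins such as GBX2 are known to bind. It reads the same on both strands and is printed in capitals.

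Pdzrn4, first start, chr15:92396560-92396859, plus strand: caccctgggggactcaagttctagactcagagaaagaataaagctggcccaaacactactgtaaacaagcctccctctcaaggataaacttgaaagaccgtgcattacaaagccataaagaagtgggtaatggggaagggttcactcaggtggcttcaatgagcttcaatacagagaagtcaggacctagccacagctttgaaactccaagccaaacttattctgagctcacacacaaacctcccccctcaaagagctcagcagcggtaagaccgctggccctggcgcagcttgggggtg
Pdzrn4, second start, chr15:92596859-92597158, plus strand: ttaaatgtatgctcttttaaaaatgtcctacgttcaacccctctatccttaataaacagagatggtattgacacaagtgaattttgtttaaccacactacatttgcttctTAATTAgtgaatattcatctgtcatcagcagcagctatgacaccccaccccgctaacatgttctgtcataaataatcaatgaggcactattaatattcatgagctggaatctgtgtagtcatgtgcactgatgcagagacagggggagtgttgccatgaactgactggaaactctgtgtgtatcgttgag
Pdzrn3, chr6:101377848-101378147, minus strand: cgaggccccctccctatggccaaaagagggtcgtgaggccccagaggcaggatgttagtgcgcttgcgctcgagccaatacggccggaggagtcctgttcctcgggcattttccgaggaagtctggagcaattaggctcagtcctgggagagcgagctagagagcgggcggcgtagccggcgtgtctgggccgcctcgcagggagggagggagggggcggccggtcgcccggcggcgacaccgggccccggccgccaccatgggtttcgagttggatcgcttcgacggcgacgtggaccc

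TAATTA occurred 1 time in the window of the second Pdzrn4 start and 0 times in the other windows, Lnx1 and Lnx2 included, against 5.29% of 32851 start windows that hold it. The windows of Pdzrn3 and Lnx2 were rich in CpG, with 32 and 29 CpG and a GC content of 68.7% and 65.7%. Those of Pdzrn4 held 4 and 3 CpG (50.3% and 39.3% GC), below the median of 7 over all windows, and that of Lnx1 held 10. The arrays do not tell which Pdzrn4 start was in use.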

How the data were processed

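The deposited unnormalized tables hold bead intensities per probe and array, and a detection value given as a fraction from 0 to 1. The scanner software of chip 2 was GenomeStudio 1.1.1, per the file headers. The deposited normalized table holds log2 values by the authors. BeadStudio, GenomeStudio and lumi appear in the submitters' processing notes, and the normalization is not given in the sources used. Detection p was taken as 1 minus the deposited fraction, since bright probes lie near 1.

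Each chip was normalized over its 6 arrays with neqc (offset 16, limma 3.58.1, R 4.3.3). Probes were joined across chips through the deposited joined table. Of its 31459 probes, 11 without a single chip 1 match were left out. Names were updated to RefSeq through accession (19533 probes), symbol (2793) or synonym (2314), and 6808 kept the file's name. Probes were fitted one by one with limma (lmFit, eBayes, two-sided, Benjamini-Hochberg over all probes tested, threshold 0.05): over both chips with chip as a block (13215 probes detected on at least 4 of 8 arrays), on chip 2 alone (21369 detected on at least 2 of 4), and for the interaction of genotype and chip. A region was counted where it differed by 1 or more (log2) from both WT arrays of chip 1. A level not detected in a group was replaced, array by array, by the higher of its own value and the lowest detected signal, which gives the "at least" folds.

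Every probe of the 4 genes is named, with Gbx2, Pdzd4, the 6 genes most like Pdzrn4, and from each list its calls (up to 4) or else the 2 smallest p. A gene on a list is its brightest joined probe. The genes and lists were chosen with earlier results of these data known. The number of arrays limits precision: 30.7 to 36% of probes were detected on chip 1 and 44.8 to 46.4% on chip 2. The functions were tested on simulated data. Alternatives covered background correction, the deposited log2 values, the filter, normalization, single chips, replicate 5, the replicate block and each array left out. For Dtx1, Pdzd4 and Gbx2 they were added after seeing the data.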

Additional observations from a re-analysis of the deposited data

Results flagged for a closer look

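The 2 arrays that the labels exclude, replicate 5 of each genotype, entered only the alternative that includes them and hold a Pdzrn4 signal that runs against the other arrays. KO5 minus WT5 was 1.69 with ILMN_1249150, 1.46 with ILMN_1239949, 0.93 with ILMN_1253021 and 1.36 with ILMN_2536446, where KO was below WT otherwise. The last probe was not detected on WT5, so KO5 was at least 1.86-fold higher with it. With 1 array a genotype this was not tested. On WT5 the meninges markers summed to 1803, against 160 to 347 on the other chip 2 arrays. Of these 5 markers 3 were detected on WT5, Col3a1 at 9.54, Lum at 9.74 and Col1a2 at 6.92, while Dcn (5.77) was not. Col1a1 was lower there than on the kept WT arrays, at 4.81 and not detected, against 6.02 in WT3 and 7.6 in WT4. The neuron markers summed to 20181 on WT5, against 38961 to 55223 on the other chip 2 arrays. Gad1 read 5.86 in WT5 and 8.90 in KO5. The thalamus markers summed to 57371 in WT5 and 48407 in KO5. Without Gbx2, the targeted gene, the other 6 summed the other way, to 20297 in WT5 and 35157 in KO5. The part of all these markers in the reversed order was not tested.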

How the results depend on the processing

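No probe of the 4 genes changed the sign of its KO minus WT or region difference where that difference was called. Of 274 alternative values, chip differences included, 234 moved by less than the spread between arrays and 40 by more. Differences that were not called could change sign. The chip difference of ILMN_1239949 went from -0.45 to 0.38 in the deposited log2 values. For Pdzrn4 ILMN_1249150 (-3.60) the value was -2.83 without background correction, -2.89 in the deposited log2 values and -2.55 with replicate 5 included, and from -3.84 to -3.21 with an array left out. For Pdzrn3 ILMN_3156010 (-3.35), not analysed in the deposited log2 values, it was -2.44 with replicate 5 and from -3.78 to -2.91 with an array left out.

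Counts over all probes moved far more. The 355 calls over both chips became 164 without background correction, 690 in the deposited log2 values, 84 without the detection filter, 15 with replicate 5, 0 on chip 1 alone and 63 on chip 2 alone, and 60 (without KO4) to 707 (without WT1) with an array left out, with 72, 103, 130, 137, 125 and 80 without KO1, KO2, KO3, WT2, WT3 and WT4. The 118 calls on chip 2 became 51 without background correction, 216 in the deposited log2 values, 0 without the filter, 47 with probes detected on every array and 4 with replicate 5, and 0 (without KO3) to 695 (without WT3) with an array left out, with 443 without KO4 and 193 without WT4. The labels do not say whether equal replicate numbers pair the arrays. The same-number correlations of -0.106 on chip 1 and 0.149 on chip 2, each from 2 arrays a genotype, cannot decide it. With the replicate number as block there were 457 calls over both chips and 2210 on chip 2. The 0 chip differences became 1 without background correction and up to 2 (without KO4). The 190 epithalamus probes became 51 without background correction, 117 in the deposited values, and 430 without WT2 to 713 without WT1. The 266 prethalamus probes became 93, 157, and 521 without WT1 to 975 without WT2. The cause of these shifts was not tested. Dim probes are limited by background: those detected on few arrays give bounds only.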

Other observations

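On the excluded replicate 5 the genes nearest to Pdzrn4 split. KO5 stood above WT5 by 0.70 for Cd47, 0.54 for Robo2, 2.83 for Negr1 and 0.45 for Ntng1, and was at least 1.45-fold higher for Slc6a7, which was not detected on WT5, in the order that Pdzrn4 showed there, whereas for Cyp1b1 KO5 minus WT5 was -2.44 and for Gbx2 the arrays read 15.18 in WT5 and 13.69 in KO5. Of these 6 genes Negr1 stood furthest below the kept WT arrays on WT5, at 6.97 against 10.13 and 10.40 in WT3 and WT4. Pdzd4 read 6.32 in WT5 and 7.31 in KO5 with its brighter probe on both chips, and 6.68 and 7.17 with the probe on chip 2 alone. Its dimmer probe read 5.03 and 5.06 there, at background.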
